A study of Rattus norvegicus with 6 samples.

Results

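Collagen chains and other genes of the extracellular matrix were followed in kidney cortex from male Sprague-Dawley rats. The rule took every rat gene with a RefSeq collagen chain symbol, 44 in all, and 16 further matrix genes: Cilp, Fn1, Fbn1, Eln, Lum, Dcn, Postn, Sparc, Mmp2, Timp1, Timp2, Timp3, Lox, Loxl1, Loxl2 and Tgfb1. A gene was a member when a non-control probe carried one of its RefSeq accessions and stood well above background, as the scanner software marks it, throughout 1 group or both. Of the 60 genes, 36 had such a named probe and 33 passed, 20 collagen chains and 13 of the listed genes, out of 12124 genes tested in all. The other 23 collagen chains and Lox had no probe named this way and were not analysed here.

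The study compared 3 control rats given corn oil with 3 rats given 100 mg/kg/day of 4-hydroxy-m-phenylenediammonium dichloride, a salt of the aromatic diamine 2,4-diaminophenol. Dosing lasted 4 weeks in both groups, and the rats were bought at 5 weeks of age and kept on a basal diet. The sources used here do not name the vehicle of the compound. The design text calls the animals biological replicates, and each had 1 Cy3 array of 61537 non-control probes.

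The matrix between kidney cells is built from fibrillar collagens, which give tensile strength, from the sheet-forming type IV collagens of basement membranes, and from glycoproteins and proteoglycans that link fibres to each other and to cells. Fibroblasts and pericytes make most of the interstitial matrix, whereas podocytes, endothelial cells and tubule cells make the basement membranes. Lysyl oxidases cross-link collagen and elastin, matrix metalloproteinases cut matrix proteins, and tissue inhibitors of metalloproteinases restrain them. TGF-beta 1 is a ligand known for raising matrix gene expression in scarring kidneys.

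Levels are log2 of the processed Cy3 signal minus the 75th percentile of the same array, so that a level of 0 means that percentile, and a level of one probe is not set against that of another. The 75th percentile itself ran from 837 to 976 signal units in controls and from 930 to 1001 in treated animals, with 63.1% to 69.6% of probes well above background. The controls shared slide 1 and scan 1 and the treated animals slide 2 and scan 2, so treatment cannot be told apart from slide or scan anywhere below. Over all 12124 genes the median log2 difference was -0.030, and that of 7 bright spike-in controls was -0.14. The part of such an offset in the differences of matrix genes was not tested. Limma called 370 genes higher and 161 lower at an adjusted p under 0.05, that is 69.7% of the calls higher, against 47.1% with a normexp background. Of 12 proximal tubule markers, all 12 were well above background on all 6 arrays.

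Few matrix genes differed between the groups, and those that did were lower in treated cortex. Limma called 2 of the 33 lower, Cilp and Col4a4, and 0 higher, with 9 lower against 0 higher at a p under 0.05 before adjustment. The 2 calls are 6.06% of the members, where 4.38% of all genes tested were called in either direction 1.33% were called lower and 3.05% higher. With a normexp background 5 members were called, all lower, where 8.05% of all genes were called and 4.26% called lower. With an intensity trend 3 were called lower, against 6.9% of all genes in either direction and 3.26% lower, and with quantile scaling 2, against 3.72% and 1.01%. At an unadjusted p under 0.05 the share was 27.3% of the members against 25.0% of all genes, which is close to the background, but all 9 were lower, where 13.2% of all genes were lower and 11.8% higher. The groups did not overlap for 8 members that were lower and for 1 that was higher, against 18.7% and 14.1% of all genes. The treated mean was below the control mean for 22 members, or 66.7%, against 56.4% of all genes, and the median log2 difference of the members was -0.17. Because arrays measure whole cortex, fewer cells of a type and less RNA per cell cannot be told apart.

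**Figure D1:**
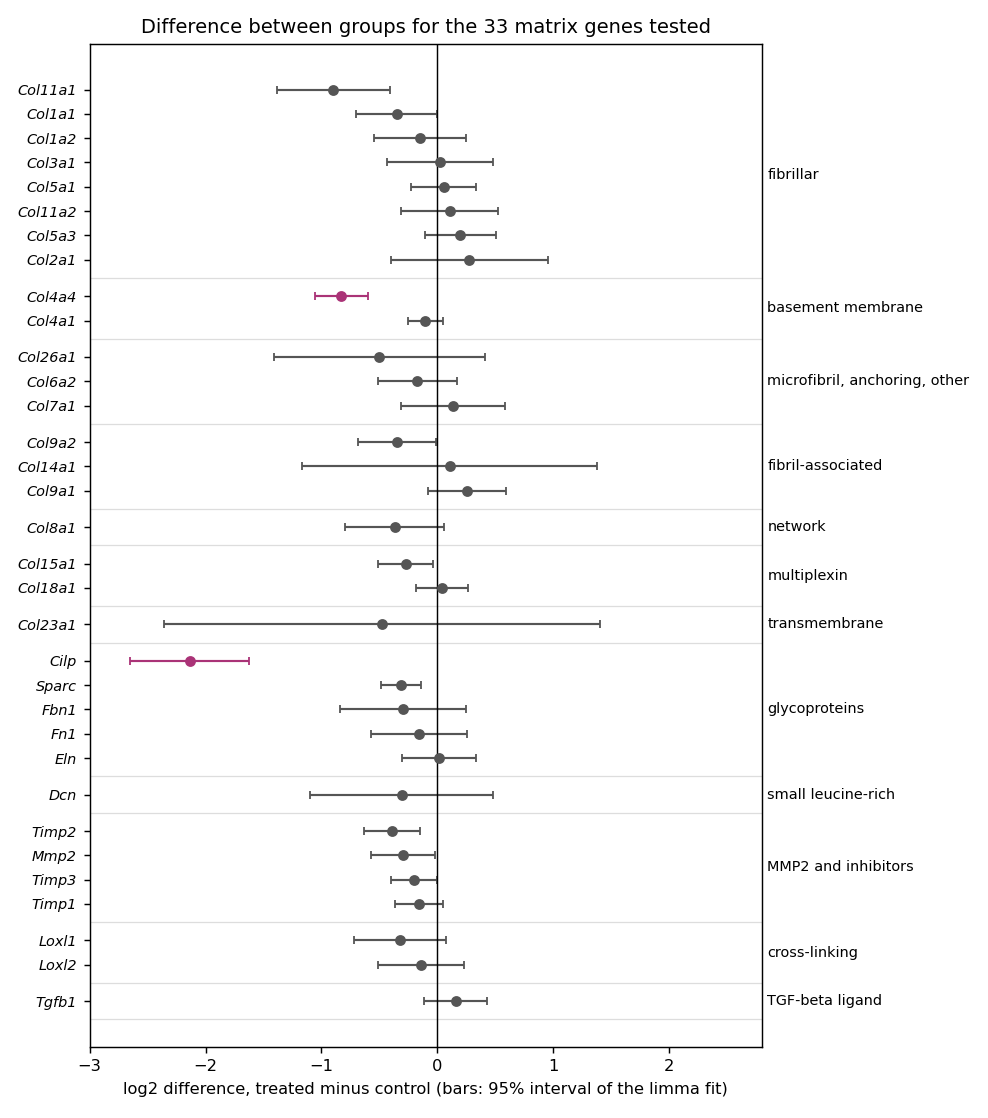
Log2 difference of each of the 33 matrix genes (horizontal axis, treated minus control, 3 animals a group), grouped by role, with the 95% interval of the limma fit as bars and the 2 called genes in purple. Cilp at -2.14 and Col4a4 at -0.83 stand to the left of 0, while the intervals of Col3a1, Eln and Col18a1 lie across it.

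Col4a4 (NCBI gene 301562) encodes the alpha-4 chain of type IV collagen, which joins the alpha-3 and alpha-5 chains in the mature basement membrane of the glomerulus, made there by podocytes. Its level was 2.91, 2.70 and 2.73 in controls 1 to 3 and 1.92, 2.09 and 1.85 in treated animals 1 to 3. Every treated value lay below every control value, and the gap between the groups was wider than the range within either. The mean was 2.78 ± 0.11 in controls and fell to 1.96 ± 0.12 in treated animals (SD, n = 3 each), which is 1.77-fold lower (log2 -0.83, SE 0.093, limma adjusted p = 0.022). The other Col4a4 probe gave a log2 difference of -0.96. The call was lost in each of the 6 fits that left out 1 array, with adjusted p from 0.0535 to 0.084 and log2 differences from -0.89 to -0.76. In those fits the calls over all genes also dropped, from 531 to at most 54. The call was also lost when dim probes were kept (limma adjusted p = 0.0529).

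Col4a1, the alpha-1 chain found in nearly all basement membranes, had levels of 4.40, 4.27 and 4.33 in controls and 4.27, 4.24 and 4.18 in treated animals. The groups overlapped narrowly, and its log2 difference of -0.10 did not pass (95% interval -0.25 to 0.049, adjusted p = 0.353). Whether Col4a4 changed more than Col4a1 was not tested. Among podocyte markers, Nphs1, the nephrin gene of the slit diaphragm, had a log2 difference of 0.045, Ptpro 0.016, Wt1 -0.19, Podxl -0.19 and Synpo 0.24, none past the threshold. The summed level of the 9 podocyte and mesangial markers ran from 43.7 to 49.1 times the array percentile in controls and from 38.3 to 45.6 in treated animals. The part of podocyte number in the Col4a4 value was not tested.

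Because Col4a4 was the one called collagen, the sequence before its start is shown with that of Col4a3, its partner chain, which had no named probe here. In the rat assembly GRCr8 the genes lie head to head on chromosome 9, with annotated starts 413 bases apart, so that the windows of 250 bases before each start share 88 bases. The windows are from RefSeq and read 5′ to 3′ on the strand of their gene, with capitals marking a GC box (GGGCGG).
Col4a4, chr9:91323578-91323827, minus strand: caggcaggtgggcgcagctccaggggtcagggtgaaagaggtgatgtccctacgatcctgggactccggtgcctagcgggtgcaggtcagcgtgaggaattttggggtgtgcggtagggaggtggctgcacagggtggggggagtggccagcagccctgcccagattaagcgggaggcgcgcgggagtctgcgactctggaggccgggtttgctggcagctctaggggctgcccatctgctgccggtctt
Col4a3, chr9:91323740-91323989, plus strand: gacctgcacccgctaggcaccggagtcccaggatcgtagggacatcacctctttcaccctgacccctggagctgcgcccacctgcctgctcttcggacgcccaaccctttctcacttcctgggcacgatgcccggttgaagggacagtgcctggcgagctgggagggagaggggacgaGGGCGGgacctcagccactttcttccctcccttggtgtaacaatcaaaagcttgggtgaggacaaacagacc
G and C made up 66.4% of the Col4a4 window and 62.0% of the Col4a3 window, and the GC box lay 72 to 67 bases before the Col4a3 start.

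Cilp (NCBI gene 315761) encodes cartilage intermediate layer protein, a secreted matrix glycoprotein first described in cartilage. Its level was 1.64, 2.29 and 2.05 in controls and -0.43, 0.07 and -0.07 in treated animals, with all treated values far below all control values. The mean fell from 1.99 ± 0.33 to -0.14 ± 0.26 (SD, n = 3 each), which is 4.40-fold lower (log2 -2.14, SE 0.21, adjusted p = 0.020), the largest difference among the members. The other Cilp probe, with levels of -1.91, -1.23 and -1.51 in controls and -3.89, -3.41 and -3.29 in treated animals, gave a log2 difference of -1.98. Leaving out 1 array moved the value between -2.31 and -1.99 and the adjusted p between 0.0501 and 0.0838, so that none of these 6 fits called it. Of the markers of cartilage and bone, Matn1 alone was tested (log2 difference 0.93, SE 1.24), and Acan and Ibsp were not well above background on any array. The window of 250 bases before the Cilp start, shown as the promoter region of the member that fell most, held none of the 6 motifs searched.
Cilp, chr8:74672198-74672447, plus strand, GRCr8: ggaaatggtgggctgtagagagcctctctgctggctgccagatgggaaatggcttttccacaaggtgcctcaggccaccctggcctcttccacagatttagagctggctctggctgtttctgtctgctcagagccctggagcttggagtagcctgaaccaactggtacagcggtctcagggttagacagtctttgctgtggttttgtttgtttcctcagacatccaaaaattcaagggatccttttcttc

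The motifs were searched on both strands of the same 250 bases, in 27457 RefSeq genes and in the 23 of 33 members that the promoter table holds. The GC box (GGGCGG) was found in 12 of the 23 member windows, or 52.2%, against 32.4% of all windows. The CCAAT box (CCAAT) was found in 5, or 21.7%, against 34.3%, and the TATA box (TATAAA) in 1, that of Col1a2, or 4.35% against 13.1%. The core of the antioxidant response element (TGACNNNGC) was in 3, those of Col7a1, Col26a1 and Timp1, or 13.0% against 10.2%. An AP-1 site (TGACTCA) and a palindromic SMAD box (GTCTAGAC) were in 0 of the 23, against 3.98% and 0.186% of all windows. These are matches of letters, with no measurement of binding.

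Other matrix glycoproteins differed less than Cilp. Sparc, a collagen-binding matricellular protein also called osteonectin, had levels of 5.65, 5.61 and 5.57 in controls and 5.40, 5.27 and 5.22 in treated animals. All treated values were lower, by little, and the log2 difference of -0.31 (SE 0.069) did not pass (limma adjusted p = 0.064), although it was called with a normexp background and with an intensity trend. Fn1, fibronectin, had levels of 1.55, 1.02 and 1.23 in controls and 1.27, 1.18 and 0.88 in treated animals, which overlapped (log2 -0.16, 95% interval -0.57 to 0.26). Fbn1, the fibrillin of microfibrils, had 0.63, 0.92 and 0.83 against 0.90, 0.52 and 0.065, with a treated SD of 0.42 against a control SD of 0.15. Its log2 difference was -0.30 (95% interval -0.84 to 0.245). Eln, elastin, had a log2 difference of 0.013 (95% interval -0.31 to 0.33) at its brightest probe. Its dimmer probes gave 0.49 and 0.52. Dcn, decorin, a small leucine-rich proteoglycan that binds collagen fibrils, had levels of 2.49, 3.02 and 1.99 in controls and 2.35, 2.50 and 1.73 in treated animals. The spread within either group was wider than the difference of means, -0.31 on the log2 scale (95% interval -1.10 to 0.48).

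**Figure D2:**
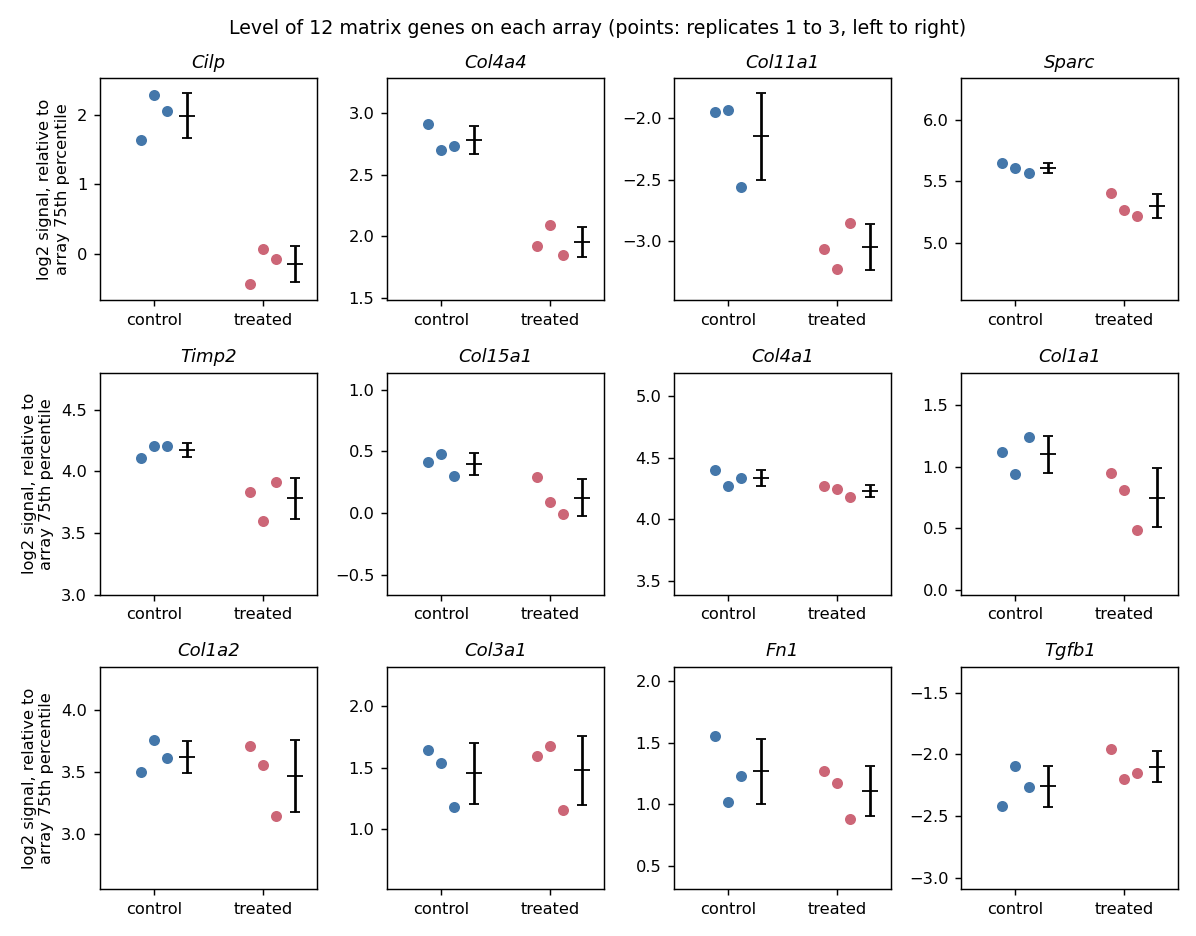
Level of 12 matrix genes on each array (vertical axis, log2 of signal over that array's 75th percentile), with control animals in blue, treated animals in red, and the mean ± SD of 3 animals beside them. The vertical scale spans more for Cilp than for the other genes, and the treated points lie wholly below the control points for Cilp, Col4a4, Col11a1, Sparc, Timp2 and Col15a1.

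The fibrillar collagens, Col11a1 among them, showed no called change: limma called 0 of 8, with 1 lower against 0 higher at a p under 0.05 before adjustment. Over all genes 13.2% were lower at that threshold. The median log2 difference of the 8 was 0.039, with a higher treated mean for 5 and a lower one for 3. Col1a1, the alpha-1 chain of type I collagen, had levels of 1.12, 0.94 and 1.24 in controls and 0.95, 0.81 and 0.49 in treated animals. Treated animal 3 was the lowest, treated animal 2 lay below all controls, and treated animal 1 was level with the lowest control (log2 difference -0.35, 95% interval -0.70 to 0.0025, adjusted p = 0.202). Col1a2, its partner chain, had 3.50, 3.76 and 3.61 against 3.71, 3.55 and 3.15, with treated animal 3 again the lowest. Its log2 difference was -0.15 (95% interval -0.55 to 0.24). Col3a1, the type III collagen that accompanies type I in soft tissue, had 1.65, 1.54 and 1.18 against 1.60, 1.68 and 1.16. The groups covered the same range (log2 difference 0.023, 95% interval -0.44 to 0.48), and the sign changed to -0.011 with median scaling.

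Col11a1, a minor fibrillar chain that is best known from cartilage, had levels of -1.95, -1.94 and -2.56 in controls and -3.06, -3.22 and -2.85 in treated animals. All treated values were lower, and control 3 stood nearest to them. The log2 difference of -0.90 (SE 0.20) did not pass over all genes (limma adjusted p = 0.064). Its other kept probes gave -0.80 and -0.25, and the gene was called with a normexp background and with the mean of its probes. The remaining fibrillar chains Col2a1, Col5a1, Col5a3 and Col11a2 had log2 differences from 0.055 to 0.28, all with intervals across 0.

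Of the collagens that decorate fibrils or link them to other structures, none was called. Col15a1, a multiplexin of the zone beside basement membranes, had levels of 0.41, 0.48 and 0.30 in controls and 0.29, 0.09 and -0.0058 in treated animals. The treated values lay just below the controls (log2 difference -0.27, SE 0.097, adjusted p = 0.160). Col18a1, the related chain whose end piece is endostatin, had 2.78, 2.74 and 2.73 against 2.61, 2.87 and 2.90, a log2 difference of 0.043 (95% interval -0.18 to 0.27). Col9a2 and Col9a1, chains of the fibril-associated type IX collagen, had differences of opposite sign at their brightest probes. Col9a2 had a log2 difference of -0.34 and Col9a1 one of 0.26, the groups overlapped for neither, and the adjusted p was 0.193 and 0.306. The groups nearly touched, with control 3 at -2.650 and treated animal 3 at -2.693 for Col9a2. For Col9a1 control 1 stood at -2.608 and treated animal 1 at -2.606. The other Col9a2 probe gave -0.20, and the other Col9a1 probes ran from -0.12 to 0.19. Col8a1, a network-forming chain of vessel walls, had -0.37 (adjusted p = 0.255). Col6a2, Col7a1, Col14a1, Col23a1 and Col26a1 had log2 differences from -0.50 to 0.14, with adjusted p of 0.446 or more.

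Signal near background limited several chains. Col23a1, a transmembrane collagen, was just inside the criterion, well above background on 2 control and 3 treated arrays, with levels from -5.90 to -2.88 in controls and from -5.26 to -5.04 in treated animals. Just outside it were Postn, the periostin gene, on 1 control and 0 treated arrays, and Col13a1 and Lum, the lumican gene, on 0 of 6 arrays each. Their probes ranged from -8.28 to -5.16, and no difference is given for them. The other 32 members were well above background on all 6 arrays.

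Matrix metalloproteinase 2 and its inhibitors all had lower treated means, without a call: limma called 0 of 4, with 3 lower against 0 higher at a p under 0.05 before adjustment. Over all genes 13.2% were lower at that threshold. Timp2, the inhibitor that also helps to activate the MMP2 proenzyme, had levels of 4.11, 4.21 and 4.20 in controls and 3.83, 3.59 and 3.92 in treated animals. All treated values were lower, with a log2 difference of -0.39 (SE 0.097, adjusted p = 0.081). Timp3, the inhibitor held in the matrix, had 1.35, 1.44 and 1.26 against 1.15, 1.06 and 1.25 in treated animals. Its groups nearly touched, and the log2 difference of -0.20 (SE 0.079) did not pass (adjusted p = 0.193). Mmp2, the gelatinase, had 0.84, 0.92 and 0.63 against 0.44, 0.67 and 0.40, and overlapped at treated animal 2 (log2 difference -0.30, adjusted p = 0.177). Timp1, the inhibitor best known as an injury-induced gene, had 0.97, 1.15 and 1.13 against 1.04, 0.85 and 0.89, with a log2 difference of -0.16 (95% interval -0.36 to 0.051).

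The cross-linking enzymes Loxl1 and Loxl2 had log2 differences of -0.32 (95% interval -0.72 to 0.073) and -0.14 (95% interval -0.51 to 0.23). Loxl1, which acts on elastin, had levels of 2.39, 2.49 and 2.74 in controls and 2.51, 2.12 and 2.02 in treated animals, with treated animal 1 inside the control range. Tgfb1, the ligand, had -2.42, -2.09 and -2.27 in controls and -1.96, -2.20 and -2.15 in treated animals. Its groups overlapped, and the log2 difference of 0.16 (95% interval -0.11 to 0.43) did not pass (limma adjusted p = 0.420).

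Probes of the same gene gave like directions for most members. Of 21 members with more than 1 kept probe, 15 had all probes on one side of 0 and 6 had probes on both sides: Col1a1, Col4a1, Col5a1, Col6a2, Col9a1 and Fn1. In the fit over every probe, in which 6.72% of 40988 probes were called and 1.74% called lower, 6 of the 63 kept member probes were called. They were both probes of Cilp and of Col4a4, 1 of Col11a1 and 1 of Eln. The Eln probe was higher, with a log2 difference of 0.49 (limma adjusted p = 0.0085), and its levels were -4.41, -4.45 and -4.42 in controls and -3.96, -3.91 and -3.92 in treated animals. The brightest Eln probe, at -0.88, -0.66 and -0.74 against -0.52, -0.75 and -0.97, gave 0.013, so the size of the Eln difference depends on the probe.

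**Figure D3:**
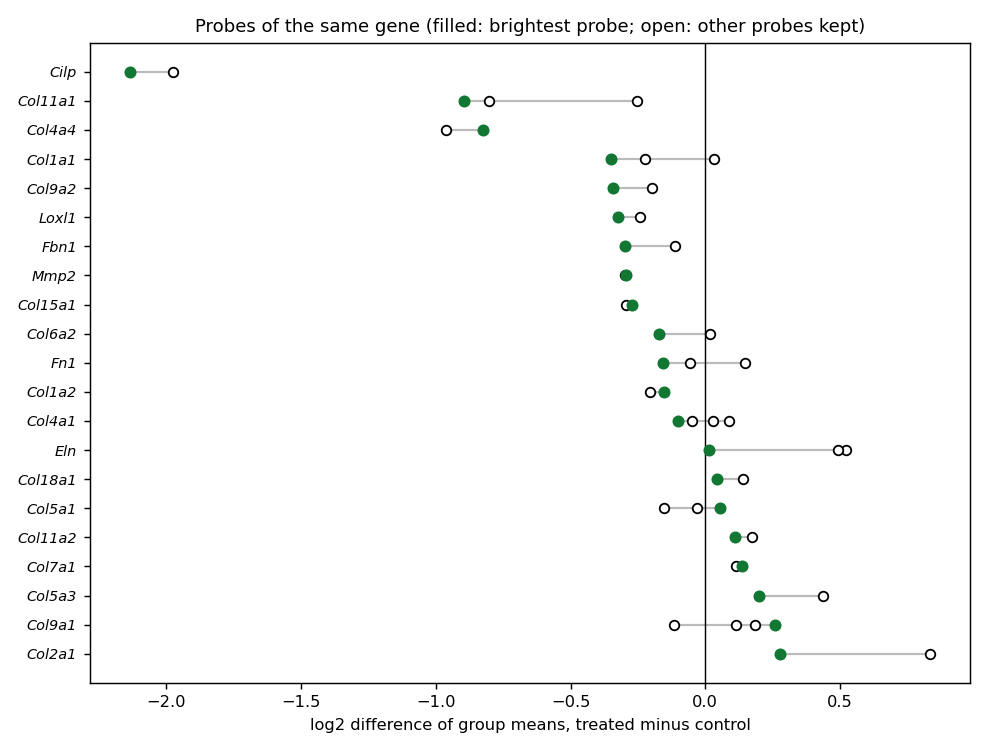
Log2 difference of group means (horizontal axis, treated minus control) for each kept probe of the 21 members with more than 1, with the brightest probe filled and the others open. The probes of Cilp lie at -2.14 and -1.98 and those of Col4a4 at -0.83 and -0.96, while those of Eln spread from 0.013 to 0.52.

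The treated animals were not alike. The median deviation of the 33 members from their control means was -0.040 in treated animal 1, -0.15 in treated animal 2 and -0.30 in treated animal 3, against -0.033, -0.025 and -0.020 for all genes tested. Treated animal 3 held the lowest of the 6 values for 16 members, or 48.5%, where it held the lowest for 17.5% of all genes. Among these were Col1a1, Col1a2, Col3a1, Col6a2, Col26a1, Fbn1, Fn1 and Dcn. The median log2 difference of the members was -0.076 without this animal and -0.27 without treated animal 1, so its size rests on single animals. Of the 2 called genes, Col4a4 was also lowest in treated animal 3, at 1.85, and so is among the 16, whereas Cilp was lowest in treated animal 1. Treated animal 2 was the highest of the treated animals for both genes, so neither followed the whole order of the medians. The summed level of 13 fibroblast and pericyte markers ran from 29.5 to 30.2 times the array percentile in controls and from 29.9 to 33.2 in treated animals. Bright probes weigh most in such a sum, and the brightest, Notch3, had a mean of 3.67 in controls and 3.98 in treated animals. The treated mean was lower for 9 of the 13 and higher for 4, with a median log2 difference of -0.092. Their median deviation was -0.19 in treated animal 3. Fap was not well above background on any array. The part of stromal cell content in the order of the animals was not tested.

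**Figure D4:**
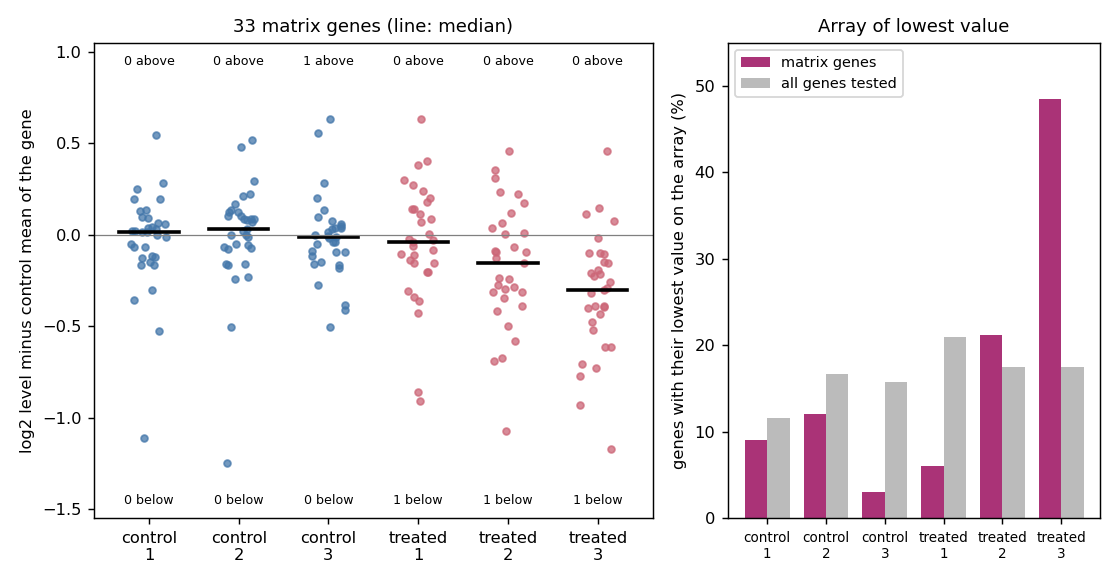
Left, log2 level of each of the 33 members minus its control mean, by array, with the median as a black line and the number of points beyond the axis printed. Right, share of genes whose lowest value of the 6 lies on each array (vertical axis, percent), for the matrix genes and for all genes tested. Treated animal 3 has a median of -0.30 and holds the lowest value of 48.5% of the matrix genes against 17.5% of all genes.

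The other genes of the matrix and TGF-beta pathways were taken from 7 lists, of which 120 of 162 genes were tested. None of the 120 was called by limma, against 4.38% of all genes. Before adjustment 8 were higher and 11 lower at a limma p under 0.05, against 11.8% and 13.2% of all genes. The 8 include Loxl4 and Mmp13, which passed the criterion through the treated arrays alone. The median log2 difference of the 120 was -0.074. Among 25 TGF-beta pathway genes, 4 were lower at an unadjusted p under 0.05 and 1 was higher, against 13.2% and 11.8% of all genes. The higher gene was Ltbp2 (log2 difference 0.78, limma adjusted p = 0.133). The treated mean was lower for 13 of the 25 and higher for 12. Pmepa1, a feedback inhibitor of the pathway, had levels of 3.02, 2.87 and 3.20 in controls and 2.57, 2.32 and 2.55 in treated animals, all lower (log2 difference -0.55, SE 0.11, adjusted p = 0.058). Eng, the endoglin co-receptor, had -0.18 (adjusted p = 0.130). Among 21 elastic fibre and matricellular genes, Ccn2, the connective tissue growth factor that TGF-beta induces, had 2.04, 2.30 and 2.19 against 1.70, 1.81 and 1.76, also all lower (log2 difference -0.42, SE 0.083, adjusted p = 0.053). Ecm1 had -0.27 (adjusted p = 0.188), and Ccn1, which was higher, had 0.30 (limma adjusted p = 0.192). Of these 21 genes, 2 were lower and 1 was higher at an unadjusted p under 0.05.

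Among 21 further proteases and inhibitors, Mmp15 and Mmp14, both membrane-type metalloproteinases, went opposite ways. Mmp15 had 4.78, 4.58 and 4.87 in controls and 5.16, 5.16 and 5.19 in treated animals (log2 difference 0.43, adjusted p = 0.055). Mmp14, an activator of MMP2, had 2.04, 2.04 and 2.09 against 1.86, 1.81 and 1.71 (log2 difference -0.26, adjusted p = 0.070). Of 9 basement membrane genes other than collagens, Lamb3 and Lama5, laminin chains, had -0.83 (adjusted p = 0.083) and -0.31 (adjusted p = 0.110). Of 14 collagen and fibronectin receptors, Itga6, a laminin-binding integrin chain, had -0.53 (adjusted p = 0.065) and Ddr2, a collagen receptor kinase, -0.22 (adjusted p = 0.222). Among 21 genes of collagen synthesis and processing, Tll1, a tolloid-like protease, had 0.27 (adjusted p = 0.176). Loxl4, a lysyl oxidase relative, was well above background on 0 of 3 control arrays. In treated animals it stood at least 1.21-fold higher (adjusted p = 0.085). It passed the criterion through the treated arrays alone, and its bound raises each control value to the lowest signal well above background on that array. Of 9 proteoglycan genes, Aspn and Bgn had 0.68 (adjusted p = 0.279) and -0.21 (adjusted p = 0.398).

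Markers of the cells that make or surround the matrix gave few calls. Acta2, the smooth muscle actin that also marks myofibroblasts, was called higher, where 3.05% of all genes were called higher. This was the 1 call among 7 smooth muscle and myofibroblast markers. Acta2 levels were -1.48, -1.36 and -1.35 in controls and -0.80, -0.84 and -1.04 in treated animals (log2 difference 0.50, adjusted p = 0.039). It was not called in any of the 6 fits without 1 array (adjusted p from 0.0838 to 0.122). Before adjustment 2 of the 7 smooth muscle and myofibroblast markers were higher and 0 lower at a limma p under 0.05, Acta2 and Actg2. Over all genes 11.8% were higher at that threshold. Actg2 had a log2 difference of 0.76 (adjusted p = 0.092). Of 13 fibroblast and pericyte markers limma called 0, with 1 higher against 0 lower at a p under 0.05 before adjustment, where 11.8% of all genes were higher. Notch3, a receptor of pericytes and smooth muscle, had 0.31 (adjusted p = 0.059) and S100a4 -0.26 (adjusted p = 0.213). Of 9 endothelial markers limma called 0, with 0 at an unadjusted p under 0.05, and Kdr and Ehd3 had -0.14 (adjusted p = 0.317) and 0.23 (adjusted p = 0.517). Of 11 leukocyte markers limma called 0, with 2 lower at an unadjusted p under 0.05, Itgam (log2 difference -0.66) and Coro1a (-0.32). Over all genes 13.2% were lower at that threshold. The treated mean was lower for 7 of the 11 and higher for 4, Cd3g and Cd68 among the latter. The brightest, Lyz2 and Cd74, weigh most in the leukocyte sum. Their means were 6.15 and 5.48 in controls and 5.95 and 4.82 in treated animals, and control 1 was the highest for Cd74, at 6.05. The summed level ran from 108 to 146 in controls and from 79.9 to 110.2 in treated animals for leukocyte markers, and from 9.27 to 10.04 and 12.4 to 21.6 for 7 red cell markers. Slc4a1, the brightest red cell marker, weighs most in the red cell sum, with a mean of 2.89 in controls and 3.29 in treated animals. Of the 7 red cell markers, 5 were well above background on all 6 arrays. All 7 red cell markers had a higher treated mean, with a median log2 difference of 1.59. Before adjustment 6 of the 7 were higher at a limma p under 0.05, against 11.8% of all genes. The groups did not overlap for 6, all higher, against 14.1% of all genes. Both counts and the median include Gata1 and Hemgn, which passed the criterion through the treated arrays alone. Hemgn was well above background on 2 of 3 control arrays. Of the other 5, Alas2, Ahsp, Epb42 and Slc4a1 were higher at a limma p under 0.05 and without overlap. Klf1 met neither criterion. After adjustment limma called 1, Gata1. Gata1 entered the test through the treated arrays alone, being well above background on 0 of 3 control arrays, and was at least 1.098-fold higher (limma adjusted p = 0.039). That call was lost with a normexp background (log2 difference 0.24, adjusted p = 0.237), with quantile scaling (0.078), without a filter on dim probes (0.076) and without any single array (0.056 to 0.121). Proximal tubule markers summed to between 2203 and 2353 in controls and between 2117 and 2180 in treated animals. Of the 12, limma called 2 lower, Anpep and Aqp1, where 1.33% of all genes were called lower. The treated mean was lower for 11 of the 12, against 56.4% of all genes. Of 10 medullary markers limma called 0, with 2 higher at an unadjusted p under 0.05, Upk1b and Slc14a2 (log2 differences 0.35 and 0.34). Over all genes 11.8% were higher at that threshold. The treated mean was higher for 6 of the 10 and lower for 4, with a median log2 difference of 0.031. The summed level of the 10 ran from 450 to 557 in controls and from 351 to 439 in treated animals. Umod, the brightest of them, had a log2 difference of -0.34. The part of these markers in the differences of matrix genes was not tested.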

How the data were processed

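Total RNA of renal cortex was hybridised to 1-colour arrays, 1 per animal. Per the file headers, Agilent Feature Extraction 10.7.1.1 extracted the spots, the design is tied to rn4, and the deposited intensity is a background-subtracted, detrended Cy3 signal. The authors' deposited value table holds a linear ratio of that signal to the 75th percentile of the array (0.998 of the value computed here), and its column medians were 0.105, 0.105 and 0.109 in the control columns, then 0.110, 0.108 and 0.108 in the treated columns. That match leaves neither scale, centring nor direction unknown.

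Each processed signal was divided by the 75th percentile of its array over non-control probes, and log2 was taken. Outlier spots, 1 to 3 per array, were set missing, none of them among the members, and no spot was saturated. Accessions were matched to RefSeq genes of GRCr8, which named 28193 probes of 15639 genes. A gene was represented by its brightest kept probe. The test was lmFit followed by eBayes in limma 3.58.1 under R 4.3.3 (prior degrees of freedom 1.77) over 12124 genes, with Benjamini-Hochberg adjustment at 0.05. The script was tested on simulated data.

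Members and gene lists were chosen with earlier results of these data known. The text names called members, the 10 next by p, a set of core matrix genes, and up to 3 called genes, or otherwise the 2 of smallest p, of each list. Further genes of the lists, such as the other podocyte markers, were added after their values were seen. A gene that the rule names is not reported here. Alternatives were a normexp background (offset 50), other scaling, other filters on dim probes, the value table, a replicate block, an intensity trend, other probe rules, a 2-fold minimum and leaving out each array.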

Additional observations from a re-analysis of the deposited data

How the results depend on the processing

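Cilp, Col4a4 and the median of the members kept their sign in all 16 fits over genes, the main one included. Cilp and Col4a4 were called under quantile and median scaling, with the value table, a normexp background, an intensity trend, the stricter filter, the mean of a gene's probes and every probe. The members called numbered 5 with a normexp background (Cilp, Col4a4, Col11a1, Sparc and Timp2), 1 without a filter, 1 at a 2-fold minimum and 0 without any single array. Over all genes the calls, 531 in the main fit, numbered 976 with a normexp background, 836 with an intensity trend, 2754 over every probe, 292 with the mean of probes, 56 at a 2-fold minimum, 44 without a filter and 0 to 54 without 1 array. For the other listed pathway and marker genes, 4 of 197 in the main fit, they numbered 11 with normexp, 11 with a trend, 1 at a 2-fold minimum, 0 without a filter and 0 to 1 without 1 array. The median of the members ran from -0.27 to -0.076 without 1 array. The cause was not tested, beyond the smaller number of samples or the larger number of genes.

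Signs turned in at least 1 fit for 9 members, none of them called. These were Col3a1 (-0.011 with median scaling, -0.12 to 0.18 without 1 array) and, by their range over all fits, Col18a1 (-0.010 to 0.13), Col1a2 (-0.27 to 0.010), Eln (-0.10 to 0.34), Col5a1 (-0.055 to 0.19), Col7a1 (-0.015 to 0.28), Col14a1 (-0.45 to 0.42), Col23a1 (-1.10 to 0.41) and Col11a2 (-0.065 to 0.22). Loxl4 turned without a filter (-0.52, at another probe). Replicate numbers did not pair the samples: the deviations of same-numbered arrays correlated at -0.12, -0.11 and 0.089. With the replicate block limma called 0 genes, 0 members and 0 listed genes, with 2547, 9 and 36 at an unadjusted p under 0.05. A slide block could not be fitted, since each slide held 1 group, and normexp used the median spot signal. Signals near background limit Col2a1, Col8a1 and Col23a1.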
